A study of Mus musculus with 7 samples.

Results

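The genes described here are the myelin-associated growth inhibitors Rtn4 and Omg with their receptors and co-receptors, Rtn4r, Rtn4rl1, Rtn4rl2, Lingo1, Tnfrsf19 and Ngfr. They were taken by gene symbol from the deposited gene table, in which all 8 were present among 22880 genes. RNA came from optic nerves of mice at postnatal day 14 (P14) on a C57Bl/6 background, with both nerves of a mouse making 1 sample. The mutant mice were homozygous for a floxed allele of the fatty acid synthase gene (FASN lox/lox). The controls were taken as FASN lox/lox too, although the paper names both Fasn lox/lox and Fasn lox/wt mice as controls for its developmental work. The 4 control mice carried no Cre, and the 3 mutant mice (cMU, olig2cre FASN lox/lox) expressed Cre recombinase from the Olig2 promoter, which is active in the oligodendrocyte (OL) lineage. The floxed allele came from 129X1/SvJ stock, was later crossed with 129X1/SvJ, C57BL/6 and DBA, and had been backcrossed to C57BL/6. Since no control carried Cre, the presence of Cre and the loss of Fasn cannot be told apart. Axons, astrocytes, microglia, vessels and meninges share the nerve with OLs, so every value is a mean over these cells, and in such bulk tissue fewer cells of a type and less RNA per cell cannot be told apart.

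Myelin inhibits axon growth through surface proteins of OLs. Nogo-A, a product of Rtn4, the oligodendrocyte myelin glycoprotein encoded by Omg, and the myelin-associated glycoprotein encoded by Mag all bind the Nogo receptor encoded by Rtn4r, a leucine-rich repeat protein held on the membrane by a lipid anchor. The receptor has no cytoplasmic part and signals with LINGO-1 (Lingo1) and a receptor of the TNF receptor family, either the neurotrophin receptor p75 (Ngfr) or TROY (Tnfrsf19), upstream of the small GTPase RhoA and its kinases. LINGO-1 is also known as a brake on OL differentiation.

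Levels are given as FPKM, read fragments scaled for gene length and library size by the study. Fasn checked the labels. Its FPKM was 205 ± 25.1 (SD, n = 4) in control nerves and 56.3 ± 11.3 (SD, n = 3) in cMU nerves, with all cMU samples below all control samples (log2 fold change -1.86, SE 0.138, adjusted p = 0.00312 from limma-trend). The summed normalized counts, the study's read counts after scaling, were between 32189355 and 36411133 per sample. Differences were fitted with limma-trend on log2(FPKM + 0.5), a scale that understates changes of genes with low expression, and were adjusted by Benjamini-Hochberg over 13866 genes, those that reached an FPKM of 0.5 in 3 or more samples. Of the members, 7 passed this minimum and Rtn4rl2 did not.

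No ligand, receptor or co-receptor among the members passed the adjusted threshold of 0.05. The 2 ligands were lower in every cMU nerve than in any control nerve, and Tnfrsf19 was higher in every cMU nerve, but the other 4 tested members overlapped between the genotypes. The count of 0 of 7 compares with 2.62% of all tested genes past the threshold, 1.36% lower and 1.26% higher in cMU nerves. Without adjustment, limma-trend gave a p under 0.05 for 3 of 7 members, Rtn4, Omg and Tnfrsf19, and for 24.4% of all tested genes. The same 3 of 7 members had groups that did not overlap, which was also the case for 21.1% of all tested genes. Estimates were above 0 for 5 members and below 0 for 2, and the median over the 7 was 0.17 on the log2 scale, against a median of 0.05 over all tested genes, of which 60.1% had an estimate above 0.

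**Figure D1:**
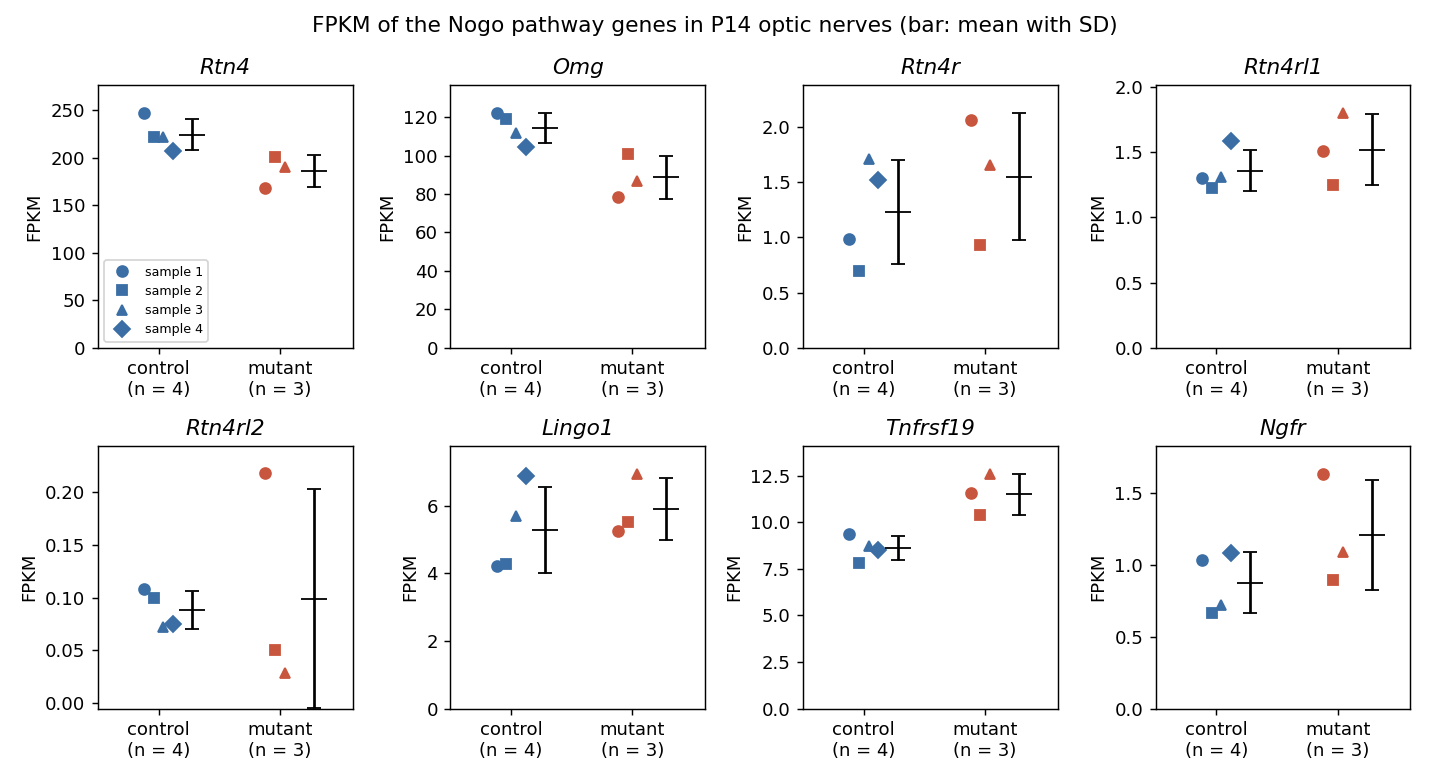
FPKM of the 8 genes in each control (blue, n = 4) and cMU (red, n = 3, labelled mutant) optic nerve sample, with the sample number as the symbol and the mean with SD as a black bar. The cMU samples of Rtn4 and Omg sit below all control samples, those of Tnfrsf19 sit above all control samples, and the groups overlap in the other 5 genes.

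The samples of each genotype carry numbers in the labels, which do not say what the numbers stand for. They were taken to pair control and cMU samples 1 to 3. This pairing is an assumption inferred from correlations in these same data, in which cMU sample 1 was nearer to control sample 4 (0.205) than to control sample 1 (0.168). A fit with this number as a replicate block was set beside the one with genotype alone. Calls made only with the block depend on that assumption. With the replicate block, Omg and Tnfrsf19 passed the threshold and the other 5 tested members did not. In this fit 8.36% of all tested genes passed, which is the background for the count of 2 of 7. Control sample 4 has no cMU sample of its number and adds nothing to the differences of the blocked fit.

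Omg (ENSMUSG00000049612) encodes an anchored leucine-rich repeat glycoprotein of OLs and neurons. Control samples 1 to 4 measured 122.1, 119.2, 111.5 and 104.6 FPKM, and cMU samples 1 to 3 measured 78.4, 100.6 and 86.99 FPKM. All cMU samples were below the lowest control sample, and cMU sample 2 was the closest to it. The mean of 114 ± 7.89 (SD, n = 4) in control nerves compared with 88.7 ± 11.2 (SD, n = 3) in cMU nerves, which was 77.5% of the control mean. This was a log2 fold change of -0.37 (SE 0.0922, 95% interval -0.58 to -0.16, adjusted p = 0.0680 by limma-trend). Fitted with sample number as a block, the estimate was -0.41 (SE 0.0918, adjusted p = 0.0416 by limma-trend), against adjusted p of 0.0416 to 0.129 over the alternatives that kept all samples.

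Omg spans 79500982 to 79504084 of chromosome 11 (GRCm38, minus strand) and lies wholly within the span of Nf1 on the plus strand. None of its 2228 exonic bases falls in an exon of Nf1 in GENCODE M21, so Omg sits in intronic sequence of Nf1. The library kit was stranded, but whether counting used the strand is not given in the sources used here. Nf1, which encodes the Ras regulator neurofibromin, had 22.9 ± 1.78 FPKM (SD, n = 4) in control and 22.9 ± 1.88 FPKM (SD, n = 3) in cMU nerves. Its log2 fold change was -0.003 (SE 0.0834, 95% interval -0.19 to 0.19, adjusted p = 0.988 from limma-trend). Its groups overlapped, unlike those of Omg.

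Rtn4 (ENSMUSG00000020458, chromosome 11 from 29692947 to 29744331, plus strand) gives rise to the Nogo proteins A, B and C, which share a reticulon domain, and the table holds a single value for their sum. By FPKM it was the most abundant member. The control samples 1 to 4 had 246.9, 221.4, 221.4 and 207.4 FPKM, and the cMU samples 1 to 3 had 167.9, 200.3 and 189.8 FPKM. The groups did not overlap, although cMU sample 2 and control sample 4 were close. The means were 224 ± 16.5 FPKM (SD, n = 4) and 186 ± 16.5 FPKM (SD, n = 3), so the cMU nerves had 82.9% of the control mean. Its log2 fold change of -0.27 (SE 0.0827, 95% interval -0.46 to -0.08) had an adjusted p of 0.102 in limma-trend and passed under none of the alternatives.

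The last 1284 bases of Rtn4 are shared with exons of Eml6, which encodes a microtubule-associated protein, on the opposite strand. Eml6 had 17.7 ± 1.09 FPKM (SD, n = 4) in control and 16.3 ± 1.46 FPKM (SD, n = 3) in cMU nerves, a log2 fold change of -0.12 (SE 0.0823, adjusted p = 0.389 from limma-trend). Its FPKM was below that of Rtn4 in both genotypes. Both values depend on how reads of the shared bases were assigned, and whether counting used the strand is not given. The other reticulons, which share the domain of Rtn4, were measured in the same libraries, and none of Rtn1, Rtn2 and Rtn3 passed the threshold. Rtn3, the most abundant of them, had 151 ± 4.88 FPKM (SD, n = 4) in control and 147 ± 11.1 FPKM (SD, n = 3) in cMU nerves (log2 fold change -0.04, SE 0.0662, 95% interval -0.19 to 0.11, adjusted p = 0.739 from limma-trend).

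Mag, the remaining classical ligand of the Nogo receptor and a sialic acid-binding protein of the inner myelin membrane, is part of the wider pathway list. Mag measured 2539 ± 138 FPKM (SD, n = 4) in control nerves and fell to 73.2% of that, 1859 ± 101 FPKM (SD, n = 3), in cMU nerves (log2 fold change -0.45, SE 0.0906, adjusted p = 0.0437 by limma-trend). This call was lost with the replicate block (adjusted p = 0.0726 by limma-trend), within 0.0256 to 0.155 over the alternatives that kept all samples. The call also ended without a filter on low values (0.141), with quantile normalization (0.155), on normalized counts (0.0594) and without a variance trend (0.0531, all adjusted p by limma-trend), so that it held in 5 of these 10 alternatives. It was further lost on leaving out any sample other than cMU sample 2 (adjusted p of 0.0747 to 0.145 by limma-trend). Rtn4, Omg and Mag were thus each lower in every cMU nerve than in any control nerve, with Mag alone past the threshold. Groups did not overlap for 21.1% of all tested genes. Lgi1, another ligand of the wider list, was higher in every cMU nerve than in any control nerve. Within a sample, the ratio of Omg to Rtn4 took values of 0.495, 0.538, 0.504 and 0.504 for control nerves 1 to 4, against 0.467, 0.502 and 0.458 for cMU nerves 1 to 3. The means of 0.510 ± 0.0193 (SD, n = 4) and 0.476 ± 0.0233 (SD, n = 3) did not differ past 0.05 in an exact two-sided permutation test (p = 0.114, adjusted p = 0.342 over 3 ratios). The Omg to Rtn4 ratio was lower in the cMU sample of all 3 numbers, and the exact paired permutation test over them, added after seeing the data, gave its smallest possible p of 0.25. The ratios of Omg to Mag (p = 0.514) and of Rtn4 to Mag (p = 0.229, same exact permutation test, adjusted p = 0.344) overlapped between the genotypes. With 4 mice against 3 this test can give no two-sided p below 0.0571.

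The Nogo receptor gene and its homologs were expressed at low levels. Rtn4r (ENSMUSG00000043811, chromosome 16 from 18127642 to 18152408, plus strand) had 0.988, 0.697, 1.71 and 1.52 FPKM in control samples 1 to 4 and 2.06, 0.930 and 1.65 FPKM in cMU samples 1 to 3. The values of both genotypes were intermingled, with sample 2 the lowest of either group. The log2 fold change was 0.25 with a wide interval (SE 0.260, 95% interval -0.34 to 0.84, adjusted p = 0.594 from limma-trend). The normalized counts behind these values were 49.1 to 129 per sample, and the interval takes in both 0 and the estimate of -0.27 for Rtn4.

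Rtn4rl1 (ENSMUSG00000045287, chromosome 11 from 75193783 to 75267769, plus strand), which encodes the homolog NgR3, a receptor for chondroitin sulfate proteoglycans, was steadier. It had 1.303, 1.23, 1.31 and 1.59 FPKM in control samples 1 to 4 and 1.51, 1.25 and 1.80 FPKM in cMU samples 1 to 3. The groups overlapped, and the log2 fold change was 0.12 (SE 0.135, 95% interval -0.19 to 0.42, adjusted p = 0.634 from limma-trend), with a sign that turned under quantile normalization (-0.008). Rtn4rl2 (ENSMUSG00000050896, chromosome 2 from 84871924 to 84886710, minus strand), which encodes the homolog NgR2, was at the edge of detection. Its FPKM was 0.0717 to 0.108 in control and 0.0284 to 0.218 in cMU nerves, from normalized counts of 1.21 to 9.0 per sample, and it was not tested.

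Tnfrsf19 (ENSMUSG00000060548, chromosome 14 from 60963834 to 61046855, minus strand) was the only co-receptor among the members whose groups did not overlap. TROY, its product, can take the place of p75 beside the Nogo receptor. It measured 9.36, 7.80, 8.75 and 8.52 FPKM in control samples 1 to 4, against 11.6, 10.4 and 12.6 FPKM in cMU samples 1 to 3. Every cMU sample was above the highest control sample, with cMU sample 2 again the nearest to the controls. The mean of 8.61 ± 0.645 FPKM (SD, n = 4) compared with 11.5 ± 1.1 FPKM (SD, n = 3) in cMU nerves, or 134% of the control mean. Its log2 fold change of 0.40 (SE 0.0925, 95% interval 0.19 to 0.61) had an adjusted p of 0.0599 in limma-trend. The blocked estimate was 0.39 (SE 0.0901, adjusted p = 0.0444 by limma-trend), against 0.0444 to 0.104 over the alternatives that kept all samples.

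Since Rtn4 and Tnfrsf19 lay on opposite sides of the control level, the sequences before their outermost RefSeq start sites are shown. RefSeq promoters of GRCm38.p6 were matched for 6 of the 8 members. The windows end at the base before the start, at chr11:29692648-29692897 on the plus strand for Rtn4 and chr14:61046856-61047105 on the minus strand for Tnfrsf19, and are 250 bases long. Capitals mark the E-box CANNTG, a motif that reads the same on both strands and is bound by basic helix-loop-helix factors.

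Rtn4: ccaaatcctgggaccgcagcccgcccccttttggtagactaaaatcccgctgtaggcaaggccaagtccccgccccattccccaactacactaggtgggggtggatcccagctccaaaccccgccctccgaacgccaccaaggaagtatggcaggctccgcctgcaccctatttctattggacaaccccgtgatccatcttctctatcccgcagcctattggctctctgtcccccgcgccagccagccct

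Tnfrsf19: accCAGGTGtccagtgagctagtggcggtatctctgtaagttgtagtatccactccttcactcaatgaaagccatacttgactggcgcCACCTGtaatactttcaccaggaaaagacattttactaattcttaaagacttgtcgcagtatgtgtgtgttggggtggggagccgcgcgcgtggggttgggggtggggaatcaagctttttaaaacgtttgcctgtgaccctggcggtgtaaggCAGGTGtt

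The Rtn4 window shown held no E-box and the Tnfrsf19 window shown held 3. RefSeq gives further starts for both genes, whose windows held 0 and 2 E-boxes for Rtn4 and 2 for Tnfrsf19, so the counts do not separate the genes. Of 32851 RefSeq promoter windows of this length, 66.2% held at least 1. Also searched, on both strands, were the SOX core ACAAAG (in 16.5% of all windows), the sterol element TCACNCCAC (in 1.05%) and the nuclear receptor element AGGTCA (in 14%), and none of these letters was in either window. A match or its absence describes these letters only.

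Lingo1 (ENSMUSG00000049556, chromosome 9 from 56618475 to 56685253, minus strand) encodes the leucine-rich repeat co-receptor LINGO-1. Its levels were 4.21, 4.28, 5.69 and 6.87 FPKM in control samples 1 to 4, and 5.25, 5.52 and 6.94 FPKM in cMU samples 1 to 3. Control samples 1 and 2 were the lowest, control samples 3 and 4 lay within the range of the cMU samples, and the groups overlapped. The means were 5.26 ± 1.27 FPKM (SD, n = 4) and 5.90 ± 0.907 FPKM (SD, n = 3). Genotype alone gave a log2 fold change of 0.17 (SE 0.173, 95% interval -0.22 to 0.56, adjusted p = 0.586 from limma-trend). Between samples of the same number the differences were close, at 0.29, 0.33 and 0.27 on the log2 scale for numbers 1 to 3, all higher in the cMU sample. The blocked log2 fold change was 0.29 (SE 0.0965) and did not pass (adjusted p = 0.104 from limma-trend, against 0.104 to 0.815 over the alternatives that kept all samples).

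Ngfr (ENSMUSG00000000120, chromosome 11 from 95568818 to 95587735, minus strand) encodes p75, the neurotrophin receptor that also serves in the Nogo receptor complex. The control samples 1 to 4 had 1.04, 0.667, 0.720 and 1.09 FPKM and the cMU samples 1 to 3 had 1.64, 0.897 and 1.09 FPKM. Both groups shared the range around 1, and cMU sample 1 was the highest of all. The log2 fold change was 0.30 (SE 0.186, 95% interval -0.12 to 0.72, adjusted p = 0.35 from limma-trend). It was also higher in the cMU sample of each number, by 0.48, 0.26 and 0.38 on the log2 scale, without passing with the replicate block (adjusted p = 0.149 from limma-trend, against 0.149 to 0.471 over the alternatives that kept all samples).

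**Figure D2:**
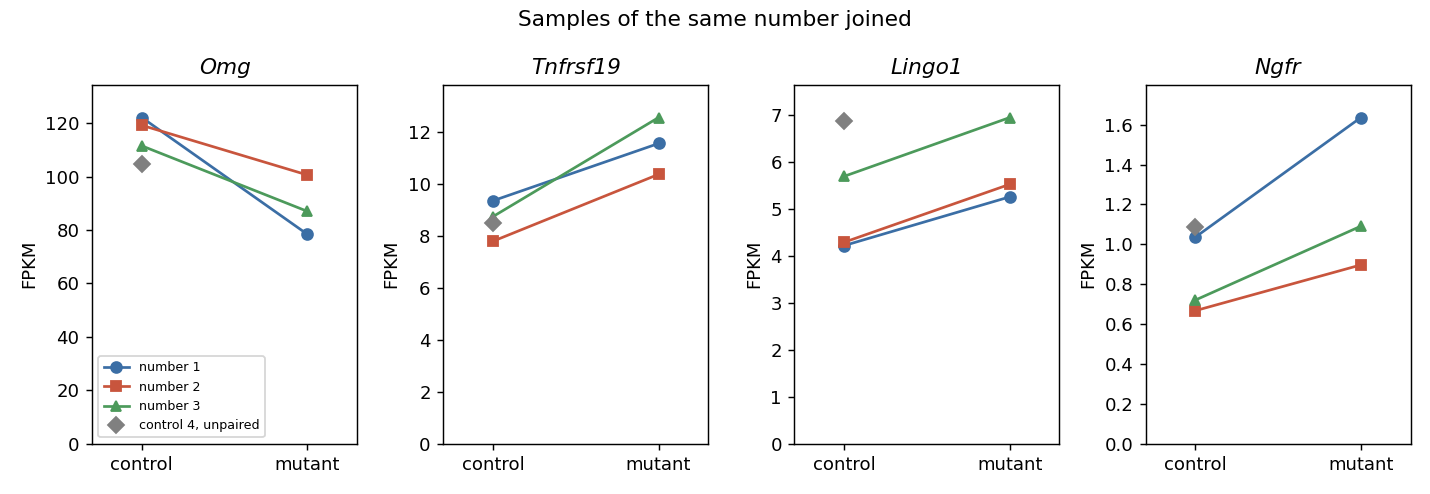
FPKM of Omg, Tnfrsf19, Lingo1 and Ngfr, with control and cMU samples of the same number joined. Control sample 4, in grey, has no cMU sample of its number. That the numbers pair the samples is an assumption. The line goes down for all 3 numbers in Omg and up for all 3 numbers in the other 3 genes. For Lingo1 the lines are nearly parallel. Rtn4r, which is not drawn, differed in direction between the numbers.

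Within sample numbers, 2 of the 7 tested members, Rtn4 and Omg, were lower in the cMU sample of all 3 numbers, and 4 were higher in all 3 numbers, namely Tnfrsf19, Lingo1, Ngfr and Rtn4rl1. Of all tested genes, 17.4% were lower and 32.7% higher in all 3 numbers, 50.1% together. Rtn4r was the exception, with differences of 0.79, 0.26 and -0.04 on the log2 scale. The differences of Omg were -0.64, -0.24 and -0.36 and those of Rtn4 were -0.56, -0.14 and -0.22, so number 1 had the widest gap and number 2 the narrowest in both ligands.

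**Figure D3:**
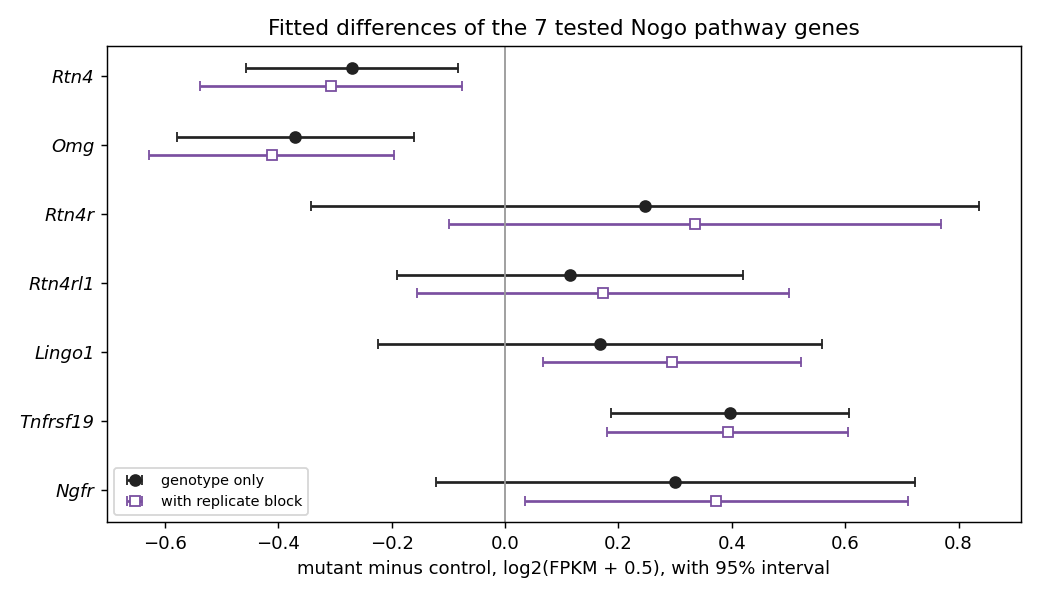
Difference of log2(FPKM + 0.5), mutant minus control, with its 95% interval for the 7 tested members, from the fit with genotype only (black circles) and with the replicate block (open purple squares). The intervals of Rtn4, Omg and Tnfrsf19 leave out 0 in both fits, those of Lingo1 and Ngfr only with the block, and those of Rtn4r and Rtn4rl1 in neither. They are not adjusted for the number of genes tested.

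The order of the levels, in FPKM and thus per gene length, was close in both genotypes. In control nerves it ran from Rtn4 through Omg, Tnfrsf19, Lingo1, Rtn4rl1, Rtn4r and Ngfr to Rtn4rl2. Rtn4 was 1.96 times as high as Omg in control nerves and 2.10 times as high in cMU nerves, without overlap of their ranges. Omg was 13.3 times as high as Tnfrsf19 in control nerves and 7.71 times as high in cMU nerves. Between Rtn4rl1, Rtn4r and Ngfr the neighbouring ranges overlapped in both genotypes, so their order was not resolved, whereas all other neighbours were apart. Of the 8 genes, 4 (Rtn4, Omg, Rtn4rl1 and Ngfr) lie on chromosome 11.

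Likeness to other genes was measured as the root mean square difference of log2(FPKM + 0.5), each gene relative to its control mean, over the 7 samples. The closest to Omg were Tppp (0.00933), which encodes a tubulin polymerization-promoting protein, Nras (0.0197) and Slc44a1 (0.0331), where the median of all tested genes was 0.333. Tppp had a mean of 504 FPKM in control and 392 FPKM in cMU nerves. Closest to Rtn4 were Fmnl2 (0.0215), Specc1 (0.0282) and Ccnd1 (0.0352), with a median of 0.272. For Tnfrsf19 they were Klhl13 (0.0456), Tuft1 (0.0461) and Sqrdl (0.0503), with a median of 0.287. Those of Lingo1 were farther off, with Ckb (0.0976) ahead of Efhd2 (0.0989) and Serp2 (0.105). Members with a mean under 5 FPKM were not compared in this way, but the matched genes had no such minimum. Tuft1 was low, at 0.872 FPKM in control and 1.31 FPKM in cMU nerves, where this scale understates changes.

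The wider list of the pathway had 39 gene symbols, of which 38 were found in the table, and 32 of those genes were tested. In all, 2 were lower in cMU nerves past the threshold, 0 were higher, and 30 did not pass, with a median log2 fold change of 0.01. Over all tested genes the shares were 2.62% past the threshold and 1.36% lower. The 2 were Mag and Vcan. Vcan encodes versican, a chondroitin sulfate proteoglycan of the matrix that inhibits axon growth. Versican transcripts measured 65.4 ± 2.56 FPKM (SD, n = 4) in control nerves and fell to 44.8 ± 6.17 FPKM (SD, n = 3) in cMU nerves (log2 fold change -0.55, SE 0.0908, adjusted p = 0.0265 by limma-trend), and the call was kept with the replicate block. It was lost without a filter on low values (adjusted p = 0.0646) or without a variance trend (adjusted p = 0.0571, both limma-trend). It was also lost on leaving out any control sample or cMU sample 3 (adjusted p of 0.0577 to 0.0992 by limma-trend). Bcan, the most abundant proteoglycan, which encodes brevican, had 342 ± 30.8 FPKM (SD, n = 4) and 289 ± 37.6 FPKM (SD, n = 3) with overlapping groups (adjusted p = 0.181 from limma-trend).

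**Figure D4:**
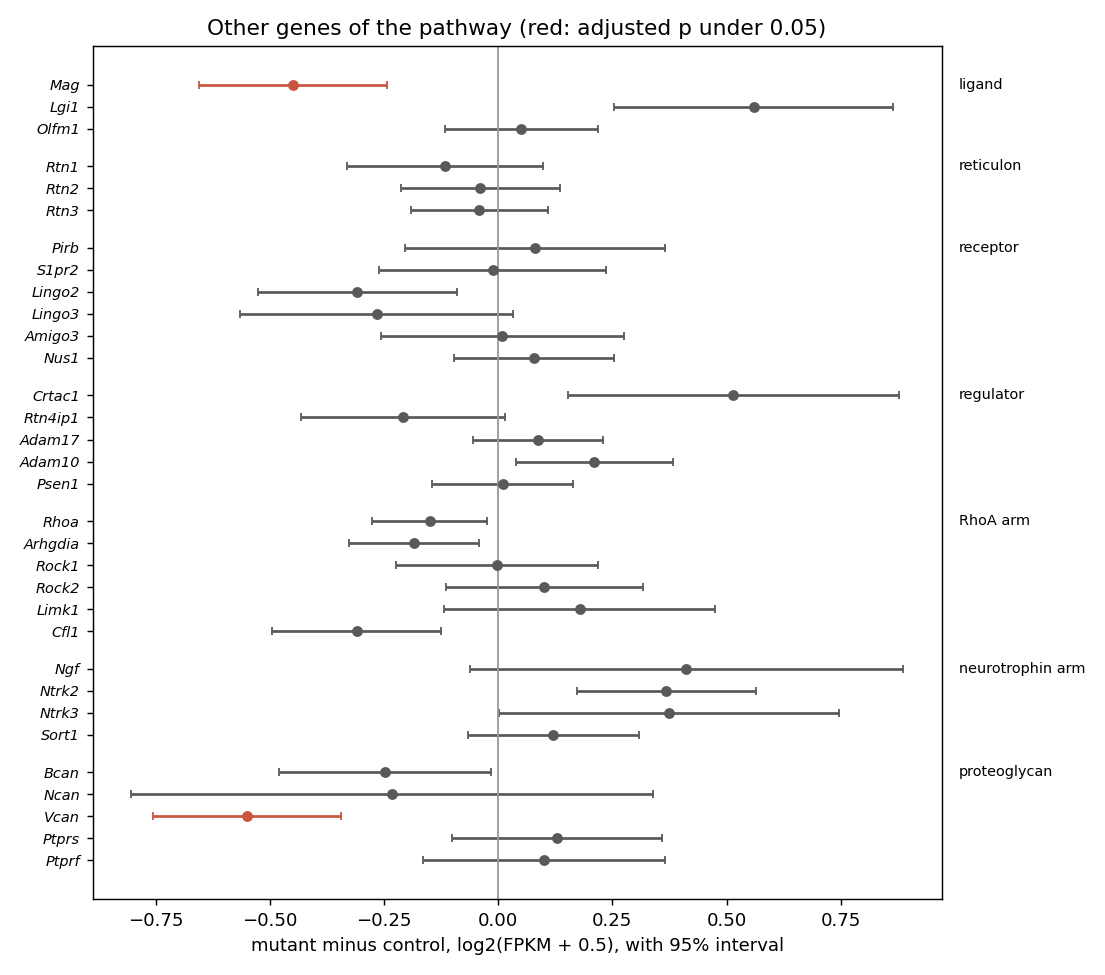
Difference of log2(FPKM + 0.5), mutant minus control, with its 95% interval for the 32 tested genes of the wider pathway list, grouped by role. Mag and Vcan, in red, are past the adjusted threshold, both lower in cMU nerves, and the other 30 genes are in grey.

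Among other ligands and modulators of the Nogo receptor, Lgi1 and Crtac1 are named because of their values. Lgi1 encodes a secreted leucine-rich repeat protein that binds the receptor. It had 7.72 ± 1.01 FPKM (SD, n = 4) in control and 11.7 ± 2.07 FPKM (SD, n = 3) in cMU nerves, without overlap (log2 fold change 0.56, SE 0.135, adjusted p = 0.0628 from limma-trend), and passed with the replicate block (adjusted p = 0.0375 from limma-trend, against 0.0375 to 0.128 over the alternatives that kept all samples). Crtac1 encodes LOTUS, an endogenous antagonist of the receptor. It had 12.4 ± 1.91 FPKM (SD, n = 4) and 18.0 ± 4.28 FPKM (SD, n = 3), likewise without overlap (log2 fold change 0.51, SE 0.160, adjusted p = 0.106 from limma-trend). It passed with sample number as a block (adjusted p = 0.0251 from limma-trend, against 0.0251 to 0.201 over the alternatives that kept all samples). Of the LINGO-1 homologs, Lingo2, also named because of its values, had 10.0 ± 0.826 FPKM (SD, n = 4) and 7.98 ± 0.762 FPKM (SD, n = 3) without overlap and did not pass (log2 fold change -0.31, SE 0.0960, adjusted p = 0.106 from limma-trend).

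None of the 6 other receptors and co-receptors tested passed the threshold. Nus1, the most abundant of them, which encodes the Nogo-B receptor, had 20.5 ± 1.1 FPKM (SD, n = 4) and 21.7 ± 1.80 FPKM (SD, n = 3) with overlapping groups. Of the 5 regulators none passed. The highest of these, Adam10, which encodes a membrane protease, had 48.6 ± 4.48 FPKM (SD, n = 4) and 56.2 ± 0.879 FPKM (SD, n = 3), without overlap (adjusted p = 0.141 from limma-trend).

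The RhoA arm downstream of the receptor complex had 6 tested genes, and none passed. Cfl1, which encodes the actin-severing protein cofilin-1 and was the most abundant of them, had 592 ± 39.5 FPKM (SD, n = 4) in control and 477 ± 36.9 FPKM (SD, n = 3) in cMU nerves, without overlap (log2 fold change -0.31, SE 0.0818, adjusted p = 0.0763 from limma-trend). In the neurotrophin arm, to which p75 also belongs, 4 of 8 genes were tested and none passed. Ntrk2, which encodes the receptor TrkB, had 107 ± 8.40 FPKM (SD, n = 4) and 139 ± 13.4 FPKM (SD, n = 3), without overlap (log2 fold change 0.37, SE 0.0863, adjusted p = 0.0605 from limma-trend). The blocked fit brought it past the threshold (adjusted p = 0.0461 from limma-trend, against 0.0461 to 0.142 over the alternatives that kept all samples).

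Markers of the cell types of the nerve were set beside these genes. With genotype alone, 1.36% of all tested genes were lower and 1.26% higher past the threshold in cMU nerves. OL markers summed to 30650 to 33010 FPKM in control and 22240 to 29440 FPKM in cMU nerves, with 1 of 5 (Cnp) lower past the threshold and a median log2 fold change of -0.32. The estimates of the 5 markers ran from -0.46 to -0.21, and those of Rtn4 and Omg lay between them. Markers of OL progenitors summed to 90.0 to 107.9 FPKM and 79.4 to 89.7 FPKM, with 1 of 3 (Cspg4) lower past the threshold. Astrocyte markers summed to 2262 to 2649 FPKM in control and 2916 to 3568 FPKM in cMU nerves, with 3 of 5 (Aldh1l1, Slc1a2 and Gja1) higher past the threshold and a median of 0.55. None of the tested markers of microglia (5), endothelial cells (4), mural cells (3), meningeal fibroblasts (4), neurons (4) or Schwann cells (2) passed. The median of each of these lists was above 0, from 0.14 in mural cells to 0.57 in meningeal fibroblasts. An estimate above 0 was also found for 60.1% of all tested genes, whose median was 0.05. With the replicate block Cnp no longer passed (adjusted p = 0.0605 by limma-trend). Csf1r of microglia, Cdh5 and Flt1 of endothelial cells and Pdgfrb of mural cells were higher past the threshold with the block. So were Col1a1, Col1a2 and Dcn of meningeal fibroblasts (adjusted p of 0.0235 to 0.0449 over these genes by limma-trend). In this fit 8.36% of all tested genes passed. Over the 10 alternatives that kept all samples, the calls made with genotype alone were kept in 4 for Cnp and 5 for Slc1a2. They were kept in 8 each for Cspg4, Aldh1l1 and Gja1. Over the 7 fits that left out a sample, the calls were kept in 1 for Cnp, 0 for Cspg4, 3 each for Aldh1l1 and Gja1 and 2 for Slc1a2. No marker of any list was at 0 in all samples. Whether the makeup of the nerve has a part in the levels of Rtn4, Omg and Tnfrsf19 was not tested.

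**Figure D5:**
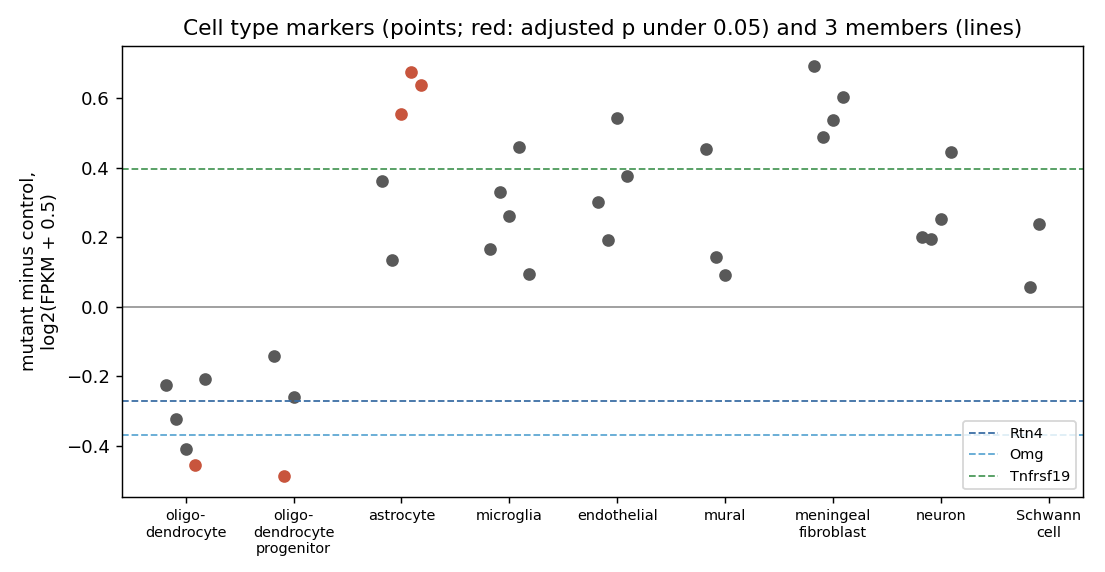
Difference of log2(FPKM + 0.5), mutant minus control, of each tested cell type marker (points, red where the adjusted p is under 0.05), with dashed lines at the values of Rtn4, Omg and Tnfrsf19. In this fit with genotype alone, all OL and OL progenitor markers lie below 0 and all markers of the other cell types above 0.

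The number of members past the threshold turned on a single sample. It was 2, Omg (adjusted p = 0.0308) and Tnfrsf19 (adjusted p = 0.0402, both limma-trend), without cMU sample 2, when 6.54% of all tested genes passed. It was 0 in each of the 6 fits that left out another sample, among them the fit without cMU sample 1, in which 1.34% of all tested genes passed. The log2 fold change stayed between -0.47 and -0.29 for Omg, between -0.33 and -0.20 for Rtn4 and between 0.33 and 0.47 for Tnfrsf19 over the 7 fits that left out a sample. For these 3 genes the direction was the same in all 17 alternatives.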

How the data were processed

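Polyadenylated RNA of 7 optic nerve samples, 4 control and 3 mutant, was sequenced by the authors in single end mode from libraries of a stranded kit. They trimmed and filtered the reads, aligned them to GRCm38 with STAR 2.5.1b and quantified genes with RSEM 1.2.22. The deposited table of 22880 genes holds FPKM values and normalized counts, a scaled signal that the authors derived from read counts by a method not given in the sources used here, beside the authors' fold changes and p-values, which were not used. Raw counts were not used here, so the authors' edgeR model was replaced by limma-trend (limma 3.58.1, R 4.3.3) with genotype as the only term.

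The test used log2(FPKM + 0.5) over 13866 genes that reached an FPKM of 0.5 in 3 or more samples, with Benjamini-Hochberg adjustment and a threshold of 0.05. It rests on the spread between mice. As a check for a library deposited more than once, sample pairs of a genotype were compared (median chi-square per gene 2.25 to 6.64 on normalized counts), and no pair was within sampling noise. Normalized counts summed to 32189355 to 36411133 per sample, and low members have less precision.

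Sample numbers come from the titles, which do not say what they stand for. They were taken to pair the samples because deviations of same-numbered samples correlated at 0.168, 0.409 and 0.27. Control 4 and mutant 1, of different numbers, correlated at 0.205, above control 1 and mutant 1 (0.168). The pairing was thus inferred from the same values that the blocked fit tests. Alternatives covered the pseudocount, the low-value filter, scaling, the unit, the variance model, the replicate block and each sample left out. Promoter sequences are from RefSeq.

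The members, the pathway list and the cell type markers were chosen with earlier results of these data known. Genes named are the members, Fasn, genes overlapping a member, list genes past the threshold or the most abundant of a role, and the 3 genes nearest in pattern to each member with a mean of at least 5 FPKM, besides Lgi1, Crtac1 and Lingo2, which were chosen once their values were known. Lilrb3 of the list was not found under that symbol.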

Additional observations from a re-analysis of the deposited data

How the results depend on the processing

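The count of members past the threshold was 0 under all alternatives that kept every sample apart from the replicate block, where it was 2, and 0 to 2 with a sample left out. Among Fasn, the pathway genes named with a test, Nf1 and Eml6, the replicate block ended the call of Mag, brought Lgi1, Crtac1 and Ntrk2 past the threshold and changed no other call. Lgi1 (adjusted p = 0.044) and Ntrk2 (adjusted p = 0.0426) also passed without mutant sample 1, and Cfl1 passed with quantile normalization (adjusted p = 0.0389, all by limma-trend). The number of all tested genes past the threshold, 363 with genotype alone, was 95 without a filter on low values, 57 without a variance trend, 1159 with the replicate block and 6 to 907 with a sample left out, lowest when control 3 or mutant 3 was missing and highest when mutant 2 was. Of the wider pathway list, 2 genes passed with genotype alone, 0 without a filter on low values, 1 on normalized counts, 0 without a variance trend, 4 with the replicate block (8.36% of all tested genes) and 0 to 3 with a sample left out, the 3 without mutant 1 (1.34% of all tested genes). The split of all genes called, 175 higher and 188 lower, was 135 and 221 with median-ratio scaling, 141 and 281 with quantile normalization and 102 and 266 on normalized counts. The sign of the log2 fold change turned for Rtn4rl1 with quantile normalization (-0.00781, main value 0.12), and for Rtn3 (-0.0924 to 0.0165) and Nf1 (-0.0576 to 0.0589) with a sample left out. None of these were called. The cause of these shifts was not tested. Depth limits the least abundant members, with a mean normalized count in control nerves of 84.1 for Rtn4r and 4.03 for Rtn4rl2.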
